A study of Mus musculus with 36 samples.

Results

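Proximal forelimb tissue that carries Del(CBS1-5) was compared with proximal forelimb of wild type (WT). By its name this allele lacks the most CTCF binding sites, abbreviated CBS, of 5 alleles with such sites deleted within Hoxd. The members were chosen by tissue and genotype in the sample titles, and they are 6 of the 36 RNA-seq libraries of the series, 3 per genotype. All came from mouse embryos of strain B6CBAF1 at stage E12.5, and each library was made from the poly(A) RNA of an individual pair of forelimbs. The tissue is labelled only as proximal forelimb, the region of the future arm, as against distal forelimb, the region of the future digits. The labels give neither the positions of the deleted sites nor the zygosity or number of founder lines of the allele. The deletion and other differences between this line and the WT embryos cannot be told apart. For comparison the report uses the other 4 proximal alleles, from Del(CBS1) to Del(CBS1-4), which lack the sites that their names give, and distal Del(CBS1-5) and WT, each with 3 libraries.

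The HoxD genes encode homeodomain transcription factors that lie side by side in the order of their activation, from Hoxd1 at one end to Hoxd13 at the other. In the limb, enhancers in the gene desert next to Hoxd1 act on the middle of the cluster in proximal tissue, and enhancers in the desert next to Hoxd13 act on the 5' genes in distal tissue. CTCF is a zinc finger protein that binds DNA at oriented motifs and halts the extrusion of chromatin loops by cohesin, and several of its sites lie among the HoxD genes.

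Libraries held 12793148 to 16077070 counts in WT and 11062069 to 14387283 in Del(CBS1-5). Each group held 2 female embryos and 1 male by the level of Xist, the RNA that coats the inactive X chromosome, with WT library 3 and Del(CBS1-5) library 2 male. Levels are given as CPM, the gene's count relative to its library's total after TMM scaling of the 36 libraries, and means carry their standard deviation (SD). Changes are log2 fold changes ± standard error (SE) from the quasi-likelihood F test of edgeR, in which the 18 proximal libraries of all 6 genotypes share an estimate of the spread. A gene was called, and is said to have risen or fallen, where its adjusted p (Benjamini-Hochberg, for the 15813 genes tested) was under 0.05. Proximal WT library 2 stood apart at genes of the distal limb, with 58.3 CPM of Hoxa13 against 13.6 and 16.8 in the other WT libraries, and with 9.27 CPM of Evx2, the neighbour of Hoxd13, against 0.62 and 0.48.

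Hoxd4, Hoxd8 and Hoxd9, which lie in the middle and 3' portion of the cluster, fell in Del(CBS1-5), to 44.7%, 64.6% and 68.4% of the WT mean. Hoxd10, Hoxd11, Hoxd12 and Hoxd13, on the 5' side, did not pass the test, and their mean levels lay at 82.5% to 105% of WT. Thus 3 of the 8 HoxD genes tested were called, all lower, where 0.0443% of all genes were called lower and 0.0696% in either direction. The median log2 fold change of the 8 genes was -0.41, beside -0.00026 over all genes tested. In these bulk samples fewer cells that express a gene and less RNA per cell cannot be told apart.

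Per length of transcript, in the FPKM that the authors deposited, the order of the genes in WT was Hoxd10 (49.5 ± 1.96, SD, n = 3), Hoxd11 (33.0 ± 1.94), Hoxd9 (20.9 ± 0.24), Hoxd12 (18.8 ± 1.79), Hoxd13 (14.8 ± 8.71), Hoxd8 (10.5 ± 0.21), Hoxd4 (7.03 ± 0.36) and Hoxd3 (2.49 ± 0.35). Hoxd1, the 3' end gene, was near 0 in both genotypes (0.086 ± 0.024 and 0.097 ± 0.060 FPKM) and lay under the count filter. In Del(CBS1-5) Hoxd9 (14.4 ± 0.57 FPKM) came after Hoxd12 (18.5 ± 2.199), and the order was otherwise as in WT. In WT the SD of Hoxd13 was wide and Hoxd9 and Hoxd12 lay close, so the order from Hoxd9 to Hoxd8 is uncertain. Differences between genes were not tested.

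**Figure D1:**
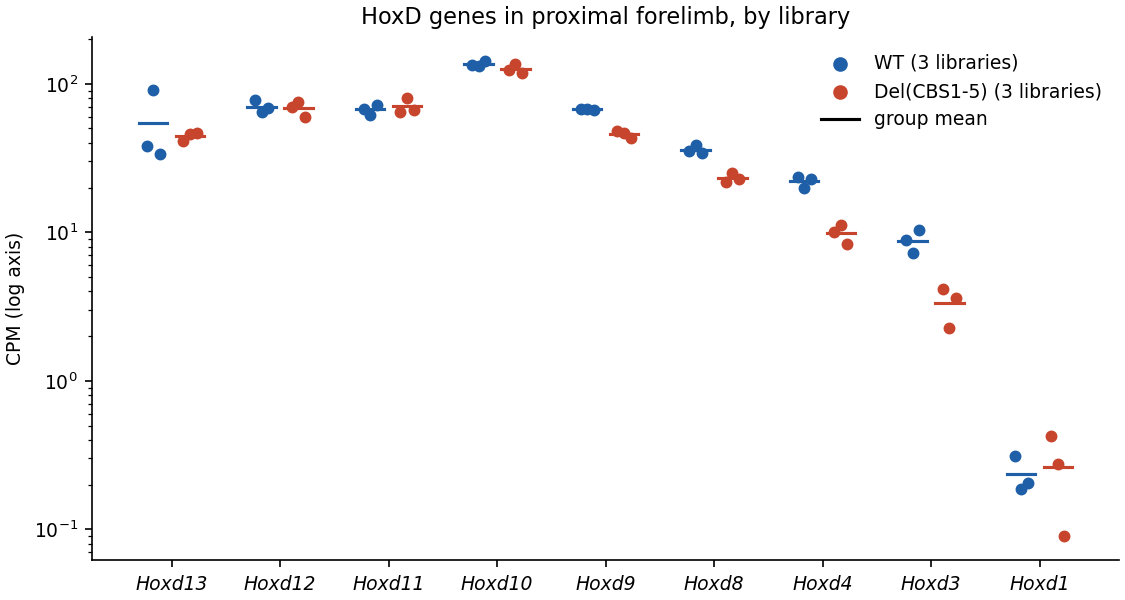
Library-scaled counts (CPM, log axis) of the 9 HoxD genes in each proximal forelimb library, with genes in chromosomal order, points for libraries and lines for group means (n = 3). The Del(CBS1-5) points lie below all WT points at Hoxd9, Hoxd8, Hoxd4 and Hoxd3, and among them at Hoxd13, Hoxd12, Hoxd11, Hoxd10 and Hoxd1.

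The windows just before the RefSeq starts of the 3 called genes and of Hoxd10, the next gene on the 5' side, which was not called, are shown because they are the promoter-side sequences of the genes on either side of the change in response. They are on the plus strand of chromosome 2 of GRCm38.p6 (RefSeq), at chr2:74691641-74691890 for Hoxd10, chr2:74697513-74697726 for Hoxd9, chr2:74704365-74704614 for Hoxd8 and chr2:74721728-74721977 for Hoxd4, and capitals mark CpG dinucleotides.
Hoxd10: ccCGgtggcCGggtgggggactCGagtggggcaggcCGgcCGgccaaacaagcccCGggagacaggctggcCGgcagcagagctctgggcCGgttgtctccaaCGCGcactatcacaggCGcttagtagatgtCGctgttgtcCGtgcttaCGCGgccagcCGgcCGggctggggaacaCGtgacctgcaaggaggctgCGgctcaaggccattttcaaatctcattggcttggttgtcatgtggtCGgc
Hoxd9: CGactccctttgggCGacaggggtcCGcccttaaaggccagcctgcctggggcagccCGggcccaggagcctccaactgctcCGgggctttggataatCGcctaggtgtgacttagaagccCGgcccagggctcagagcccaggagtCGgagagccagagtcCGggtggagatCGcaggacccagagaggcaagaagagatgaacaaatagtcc
Hoxd8: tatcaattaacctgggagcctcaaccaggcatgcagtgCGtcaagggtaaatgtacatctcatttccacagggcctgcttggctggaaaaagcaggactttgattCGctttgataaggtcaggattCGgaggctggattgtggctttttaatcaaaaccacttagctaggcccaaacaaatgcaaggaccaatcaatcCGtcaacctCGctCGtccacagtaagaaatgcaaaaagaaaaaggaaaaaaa
Hoxd4: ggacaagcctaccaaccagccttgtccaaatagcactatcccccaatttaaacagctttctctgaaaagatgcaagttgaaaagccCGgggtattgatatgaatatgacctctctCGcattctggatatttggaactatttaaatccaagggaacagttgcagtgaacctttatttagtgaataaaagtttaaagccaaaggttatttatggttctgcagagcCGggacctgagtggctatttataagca
The windows of 250 bases held 20 CpG before Hoxd10, 6 before Hoxd8 and 3 before Hoxd4, where the median of 32851 such windows over all genes was 6. The Hoxd9 window, of 214 bases because it ends where the annotated gene begins, held 10, and 250 bases from the same first base held 13. Windows of 250 bases at the other tested genes, none of them called, held 31 CpG at Hoxd13, 10 at Hoxd12 and 12 at Hoxd3. The windows at the starts of Hoxd11 held 20 and 2. In the GENCODE annotation Hoxd4 starts at 74711929, next to the start of Hoxd3, whose window held 12. The CpG counts of the called and the other genes overlapped, and a link between CpG and the response was not tested.

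Hoxd4, at 74721978 to 74729160 on chromosome 2 (mm10), encodes a factor of the anterior HOX group. It measured 23.5, 19.97 and 22.7 CPM in the WT libraries and 10.1, 11.1 and 8.34 CPM in the Del(CBS1-5) libraries. The lowest WT library was well above the highest mutant library. The change was -1.15 ± 0.19, with a 95% confidence interval of -1.55 to -0.75 (edgeR, Benjamini-Hochberg adjusted p = 0.0205).

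Hoxd8, at 74704615 to 74707933, is a gene of the middle of the cluster. It measured 35.3, 38.8 and 34.2 CPM in WT and 21.9, 25.2 and 22.9 CPM in Del(CBS1-5), and the groups did not overlap. Its change was -0.63 ± 0.11 (interval -0.85 to -0.40; edgeR, Benjamini-Hochberg adjusted p = 0.0205).

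Hoxd9, at 74697727 to 74700208, is a gene known to act in the patterning of the upper arm. It was even among the WT libraries, at 67.9, 67.1 and 66.5 CPM, and lower in each mutant library, at 47.7, 46.9 and 43.2 CPM. Its change was -0.54 ± 0.09 (interval -0.74 to -0.35; edgeR, Benjamini-Hochberg adjusted p = 0.0205).

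Hoxd3, at 74711927 to 74748271, measured 8.85, 7.20 and 10.3 CPM in WT and 4.12, 2.28 and 3.59 CPM in Del(CBS1-5). The groups did not overlap, as at 4 of the 8 genes tested, where the mutant lay below WT without overlap at 5.62% of all genes. The difference of -1.40 ± 0.26 was the largest among the HoxD genes but missed the threshold in edgeR (Benjamini-Hochberg adjusted p = 0.0556) and passed it in DESeq2 (adjusted p = 0.000644). Hoxd4 lies wholly within the annotated span of Hoxd3, on the same strand, so the division of reads between them, and with it both values, is uncertain.

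Hoxd10, at 74691924 to 74695105, had the highest HoxD level per length. It measured 133, 131 and 143 CPM in WT and 123, 137 and 118 CPM in Del(CBS1-5), with overlap, and its difference of -0.11 ± 0.08 had an interval of -0.28 to 0.05. For Hoxd11 (74682323 to 74684168) the levels were 67.9, 62.0 and 71.7 CPM against 65.0, 80.1 and 66.2 CPM. The difference was 0.07 ± 0.11 (interval -0.16 to 0.30). For Hoxd12 (74675013 to 74677705) the WT levels of 77.3, 64.1 and 69.1 CPM and the mutant levels of 69.7, 75.8 and 59.6 CPM overlapped too, with a difference of -0.03 ± 0.16 (interval -0.37 to 0.31). Hoxd10, Hoxd11 and Hoxd12 had adjusted p of 0.823, 0.926 and 0.984 in edgeR (Benjamini-Hochberg).

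Hoxd13 (74668310 to 74671599), which shapes the digits, measured 38.1, 90.3 and 33.9 CPM in WT and 41.0, 46.0 and 46.9 CPM in Del(CBS1-5). The high value is WT library 2, which also held more Evx2 and Hoxa13, and the part of distal tissue in that library was not tested. The difference was -0.28 ± 0.41, with an interval of -1.15 to 0.58 that includes 0. Over 15 alternative settings the difference of Hoxd13 ran from -0.54 to 0.31, so its sign was not stable, and it passed in 1 of them. Of the noncoding RNAs of the cluster, Gm14396 (0.15 ± 0.21) and Hoxd3os1 (-0.19 ± 0.43) were tested and not called.

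When any single library other than WT library 3 was left out, 0 HoxD genes were called, and the adjusted p of Hoxd4, Hoxd8 and Hoxd9 then lay between 0.0517 and 0.154 in edgeR (Benjamini-Hochberg). Their log2 fold changes in those fits ran from -1.25 to -1.06 for Hoxd4, from -0.69 to -0.58 for Hoxd8 and from -0.57 to -0.51 for Hoxd9.

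Among the genes that flank the cluster, 0 of 16 tested were called by edgeR, and their median log2 fold change was 0.04. Of these genes 0 had an unadjusted p under 0.05, where 6.48% of all genes did. Mtx2, a mitochondrial outer membrane protein gene beyond Hoxd1, differed by 0.08 ± 0.06, and Lnpk, an endoplasmic reticulum gene beyond Evx2, by -0.01 ± 0.10. Atf2, a stress-response transcription factor gene, differed by 0.13 ± 0.06, and Hnrnpa3, an RNA-binding protein gene, by 0.14 ± 0.07. Evx2 was uneven among the WT libraries, and its difference was -1.43 ± 0.99. In the 3 Mb around the cluster 30 of 69 gene models were tested, and the 3 calls there were Hoxd4, Hoxd8 and Hoxd9.

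Alleles with fewer deleted sites give the context of these values. All 5 proximal alleles were compared with the same 3 WT libraries, so these comparisons are not independent. At Hoxd4 the log2 fold change against WT was -0.77 ± 0.19 in Del(CBS1), -1.24 ± 0.19 in Del(CBS1-2), -1.19 ± 0.19 in Del(CBS1-3), -1.14 ± 0.19 in Del(CBS1-4) and -1.15 ± 0.19 in Del(CBS1-5). At Hoxd8 it was -0.54 ± 0.11, -0.78 ± 0.11, -0.63 ± 0.11, -0.59 ± 0.11 and -0.63 ± 0.11 in the same order. From Del(CBS1-2) onward the values at these genes had no steady order.

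At Hoxd9 the values were -0.15 ± 0.09, -0.71 ± 0.09, -0.34 ± 0.09, -0.46 ± 0.09 and -0.54 ± 0.09, lowest in Del(CBS1-2). At Hoxd3 they were -1.04 ± 0.26, -1.39 ± 0.26, -1.86 ± 0.27, -1.34 ± 0.26 and -1.40 ± 0.26, lowest in Del(CBS1-3). At Hoxd10 they were -0.04 ± 0.08, -0.55 ± 0.08, -0.40 ± 0.08, -0.10 ± 0.08 and -0.11 ± 0.08. In Del(CBS1-2) edgeR called Hoxd3, Hoxd4, Hoxd8, Hoxd9 and Hoxd10 lower, where 0.721% of all genes were called, and in Del(CBS1-3) Hoxd3, Hoxd4 and Hoxd8, where 0.0696% were. None of the 8 HoxD genes was called in Del(CBS1) (0.0443% of all genes) or in Del(CBS1-4), where edgeR called 0 genes (0%) and 2229 (14.1%) had an unadjusted p under 0.05.

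Del(CBS1-5) was also tested against these alleles directly. Against Del(CBS1-2), where 14.9% of all genes were called, it was higher at Hoxd10 (0.44 ± 0.08), Hoxd11 (0.41 ± 0.11) and Hoxd12 (0.61 ± 0.17), with edgeR Benjamini-Hochberg adjusted p of 0.00423, 0.0197 and 0.0222. Against Del(CBS1-3), where 1.69% were called, it was higher at Hoxd12 (0.73 ± 0.17, adjusted p = 0.0326 by edgeR and Benjamini-Hochberg). Against Del(CBS1), where 0.993% were called, no HoxD gene passed.

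**Figure D2:**
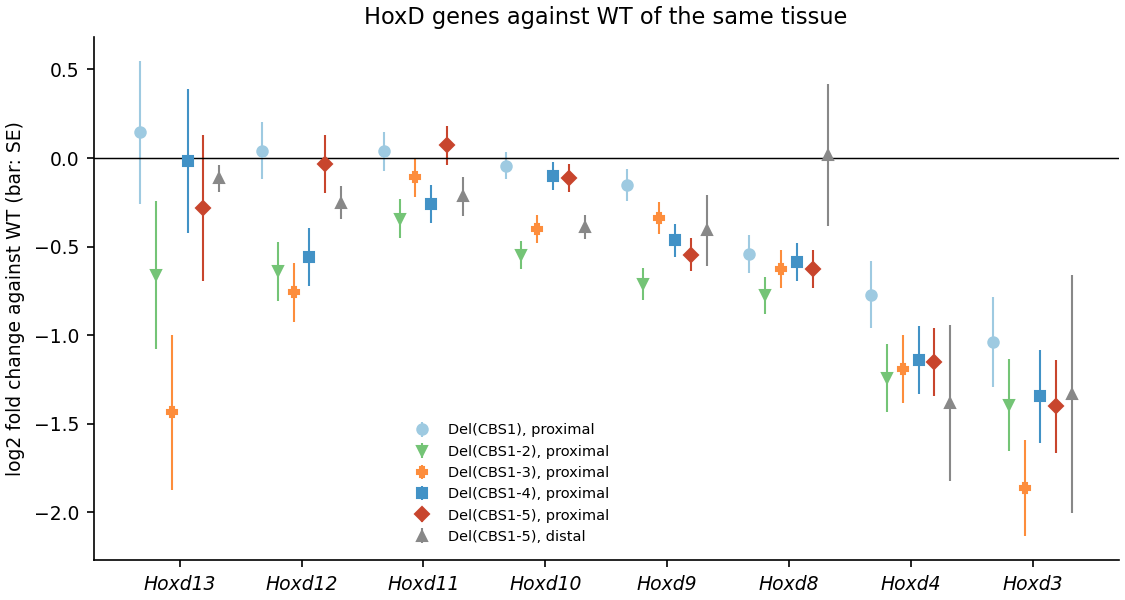
Log2 fold change against WT of the same tissue for 8 HoxD genes (y axis), with bars for the standard error, in the 5 alleles of proximal tissue and in distal Del(CBS1-5). The proximal alleles share their 3 WT libraries, and from Hoxd9 to Hoxd3 the Del(CBS1-5) value lies within a standard error of the Del(CBS1-4) value.

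The name of Del(CBS1-5) adds a site to that of Del(CBS1-4), and these alleles were tested against each other directly. The loss of that site and other differences between the lines cannot be told apart. No HoxD gene was called by edgeR (0 of 8), where 10.3% of all genes were. Hoxd12, a 5' gene, measured 57.8, 47.9 and 37.5 CPM in Del(CBS1-4) and 69.7, 75.8 and 59.6 CPM in Del(CBS1-5). All 3 Del(CBS1-5) libraries were above, and the difference was 0.53 ± 0.17 (interval 0.18 to 0.87; edgeR, Benjamini-Hochberg adjusted p = 0.0504). Hoxd11 measured 64.2, 55.7 and 48.8 CPM against 65.0, 80.1 and 66.2 CPM, again without overlap, a difference of 0.33 ± 0.11 (edgeR, Benjamini-Hochberg adjusted p = 0.0614). These calls depend on the setting: of 15 alternatives Hoxd12 passed in 5, Hoxd11 in 3 and Hoxd13 in 1, among them the fit without Del(CBS1-4) library 1, with adjusted p of 0.047 for Hoxd12 and 0.0499 for Hoxd11 (edgeR, Benjamini-Hochberg). The difference between the alleles was -0.08 ± 0.09 for Hoxd9, with an interval of -0.28 to 0.12, and -0.04 ± 0.11 for Hoxd8 (-0.27 to 0.19). It was -0.01 ± 0.20 for Hoxd4 (-0.43 to 0.41) and -0.06 ± 0.28 for Hoxd3 (-0.64 to 0.53).

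Outside HoxD this step had 1627 called genes, 749 higher (4.74%) and 878 lower (5.55%) in Del(CBS1-5), although neither allele had more than 11 calls against WT. Erythroid genes rose together: 9 of 12 were called higher and 1 lower, with a median of 1.31 beside 0.0022 over all genes. Hbb-bh1, an embryonic beta-like globin, measured 45.6, 34.3 and 45.5 CPM in Del(CBS1-4) and 321, 269 and 179 CPM in Del(CBS1-5), a change of 2.62 ± 0.45. Other increases were in Rhd, a blood group antigen of red cells (3.58 ± 0.57), Hemgn, a nuclear protein of erythroid cells (3.47 ± 0.63), and the long noncoding RNA Eldr (2.82 ± 0.49). The groups of these 4 genes did not overlap, as at 30% of all genes.

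Of the cycling-cell genes 15 of 20 rose in the same step and 0 fell, with a median of 0.30. Of the cartilage genes 11 of 24 fell and 0 rose (median -0.63), as did 8 of 18 genes of tendon and connective tissue, with 1 higher (median -0.51), and 7 of 31 of skeletal muscle, with 1 higher (median -0.41). Prg4, which encodes the joint lubricant lubricin, fell by 3.89 ± 0.87 on the log2 scale, from 5.04, 3.23 and 9.41 CPM to 0.14, 0 and 1.17 CPM. The gene copies Rps15a-ps8 (-7.50 ± 1.54), Eif3j2 (-5.23 ± 1.13) and Nudc-ps1 (-5.13 ± 1.19) fell too, and reads shared with their parent genes make these values uncertain. The summed level of the erythroid genes was 1643 to 2288 CPM in Del(CBS1-4) and 3263 to 3702 CPM in Del(CBS1-5). Its part, and that of the mix of cell types, in the other differences was not tested. Without Del(CBS1-5) library 1 the step had 110 calls, without library 2 240, and without Del(CBS1-4) library 1 or 3 it had 537 or 410.

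Against WT, Del(CBS1-5) had 8 called genes outside the HoxD cluster. Mns1, which encodes a protein of the ciliary axoneme and of meiotic nuclei, Fignl1, an ATPase of homologous recombination, and Polr1b, a core subunit of RNA polymerase I, rose. Sirpa, a receptor that binds the surface protein CD47, fell, as did the transcript AA465934 and Pcna-ps2, a processed copy of Pcna. The gene models Gm36948, which rose, and Gm13328, which fell, are outside the rule for named genes and were named after their values were seen. In all, 4 genes rose (0.0253%) and 7 fell with those of HoxD, and 1025 (6.48%) had an unadjusted p under 0.05.

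Mns1, on chromosome 9 at 72438011 to 72462025, measured 23.8, 25.9 and 27.3 CPM in WT and 44.4, 41.0 and 41.3 CPM in Del(CBS1-5). The groups were far apart, and the change was 0.72 ± 0.11 (edgeR, Benjamini-Hochberg adjusted p = 0.0205). Gm36948 lies inside Mns1 on the same strand, at 72440760 to 72444006, and its 0.31, 0.75 and 1.09 CPM in WT became 3.13, 2.77 and 2.87 CPM (1.99 ± 0.33). The values of this pair are not separate evidence, since a read there can belong to either model. In Del(CBS1) to Del(CBS1-4), in order, Gm36948 differed from WT by 1.44 ± 0.34, 0.69 ± 0.36, -0.67 ± 0.42 and 1.21 ± 0.35. Mns1 differed by 0.40 ± 0.11, -0.11 ± 0.12, 0.02 ± 0.12 and 0.15 ± 0.12 in the same order, and neither was called in these alleles.

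Fignl1, on chromosome 11 at 11800288 to 11808962, measured 52.5, 48.8 and 49.7 CPM in WT and 70.7, 85.5 and 65.7 CPM in Del(CBS1-5), without overlap. Its change was 0.56 ± 0.10 (edgeR, Benjamini-Hochberg adjusted p = 0.0314). The level was much the same in proximal Del(CBS1), at 63.4, 79.1 and 69.3 CPM (0.49 ± 0.10 against WT, not called). In Del(CBS1-2), Del(CBS1-3) and Del(CBS1-4) Fignl1 differed from WT by 0.0009 ± 0.10, 0.15 ± 0.10 and -0.19 ± 0.10. AA465934, on chromosome 11 at 83291699 to 83294632, measured 34.02, 20.3 and 22.4 CPM in WT and 5.47, 4.77 and 4.75 CPM in Del(CBS1-5) (-2.34 ± 0.39; edgeR, Benjamini-Hochberg adjusted p = 0.0205). It was also low in Del(CBS1-4) libraries 2 and 3, at 5.16 and 6.64 CPM, but not in library 1, at 19.2 CPM.

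Polr1b, on chromosome 2 at 129100995 to 129126594, measured 43.9, 40.8 and 50.4 CPM in WT and 64.9, 61.4 and 61.0 CPM in Del(CBS1-5). It rose by 0.47 ± 0.08 (edgeR, Benjamini-Hochberg adjusted p = 0.0205). Sirpa, on the same chromosome at 129592839 to 129632228, measured 61.9, 67.2 and 56.1 CPM in WT and 44.6, 41.8 and 48.0 CPM in Del(CBS1-5), and it fell by 0.46 ± 0.08 at the same adjusted p. Both had no overlap between the groups. Against Del(CBS1-4), a comparison that uses the same Del(CBS1-5) libraries, Polr1b rose by 0.73 ± 0.08 and Sirpa fell by 0.67 ± 0.08 in Del(CBS1-5). Against Del(CBS1-2) Sirpa was lower too (-0.39 ± 0.08), but Polr1b, at 54.5, 58.3 and 61.3 CPM there, differed by 0.11 ± 0.08 and did not pass (edgeR, Benjamini-Hochberg adjusted p = 0.351).

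**Figure D3:**
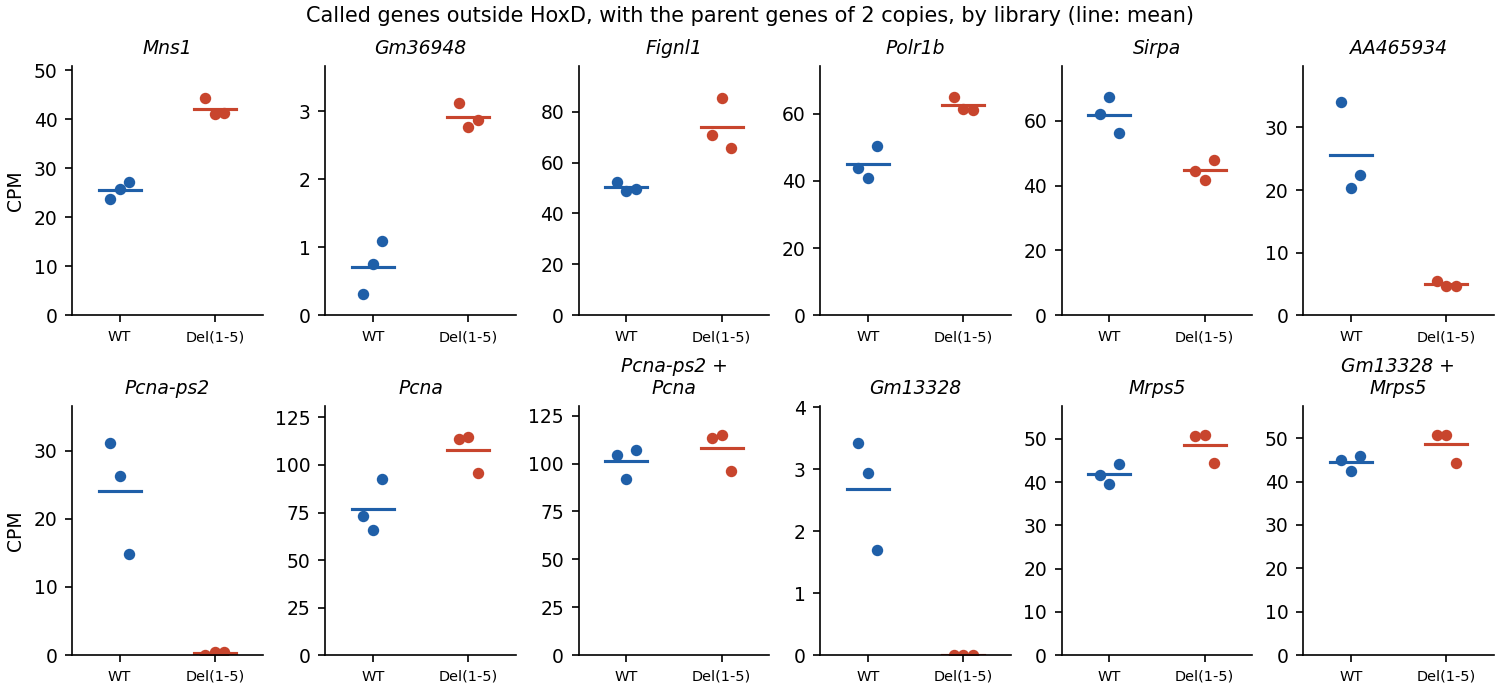
Library-scaled counts (CPM, axes from 0) in each library for the 8 called genes outside HoxD, for Pcna and Mrps5, the parent genes of the copies Pcna-ps2 and Gm13328, and for the sum of each copy and its parent. Lines are group means (n = 3). The groups are apart for each called gene and overlap for both sums.

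Pcna-ps2 and Gm13328 had the largest changes. Pcna-ps2 (chromosome 19, 9283380 to 9284160) measured 31.1, 26.3 and 14.8 CPM in WT and 0.071, 0.41 and 0.45 CPM in Del(CBS1-5), which is 1 to 6 counts in the mutant libraries (-6.27 ± 0.61; edgeR, Benjamini-Hochberg adjusted p = 7.59e-05). Gm13328 (chromosome 2, 20235045 to 20236064), a processed pseudogene, had 44, 47 and 25 counts in WT and 0 in each Del(CBS1-5) library. With 3 counts over the 3 mutant libraries as the floor, its level was at least 35.5-fold lower than the WT mean of 2.69 ± 0.89 CPM (SD, n = 3; edgeR, Benjamini-Hochberg adjusted p = 0.000203). The low levels were not particular to Del(CBS1-5). Proximal Del(CBS1-2) had 0.29, 0.14 and 0.25 CPM of Pcna-ps2 and 0 of Gm13328 in all 3 libraries. The other alleles were not low, with 22.2 to 25.2 CPM of Pcna-ps2 in Del(CBS1-4), 14.9 to 30.2 CPM in Del(CBS1-3) and 10.6 to 35.1 CPM in Del(CBS1).

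These copies are so close to their parents that short reads can be exchanged between them. Over 80 bases of transcript, chosen where copy and parent differ most without a gap, the sequences from the GENCODE M21 transcripts are as follows, with differing bases in capitals.
Pcna-ps2: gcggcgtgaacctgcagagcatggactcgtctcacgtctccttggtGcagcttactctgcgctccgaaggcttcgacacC
Pcna: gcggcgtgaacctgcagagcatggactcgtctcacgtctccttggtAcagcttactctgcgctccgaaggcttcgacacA
Gm13328: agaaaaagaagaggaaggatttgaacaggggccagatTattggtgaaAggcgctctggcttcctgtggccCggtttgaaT
Mrps5: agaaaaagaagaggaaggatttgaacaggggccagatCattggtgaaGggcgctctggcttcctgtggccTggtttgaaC
The Pcna-ps2 transcript was 99.2% identical to Pcna over its 781 bases, and 467 of its 732 stretches of 50 bases, the read length, occur unchanged in Pcna. For Gm13328 and Mrps5, a gene of the small mitochondrial ribosome subunit, the identity was 98.4%, and 551 of 971 such stretches are shared. Pcna, the sliding clamp of DNA replication, measured 73.2, 65.6 and 92.4 CPM in WT and 113, 115 and 95.9 CPM in Del(CBS1-5), above without overlap but not called (0.49 ± 0.11; edgeR, Benjamini-Hochberg adjusted p = 0.235). The sum of Pcna and Pcna-ps2 was 101 ± 8.09 CPM in WT and 108 ± 10.3 in Del(CBS1-5) (SD, n = 3), with overlap. The sum of Mrps5 and Gm13328 was 44.5 ± 1.85 and 48.6 ± 3.71 CPM, again with overlap. The division of reads between copy and parent, and with it the values of both copies, is uncertain.

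A further set of genes was picked for a low level in WT library 3, so its separation from the other WT libraries is built in. No count was made with another WT library in its place. In 15 genes, chosen after values were seen, WT libraries 1 and 2 were at least 10-fold above both WT library 3 and every Del(CBS1-5) library, and 13 of these are copies or unnamed models. Gm4864 measured 9.55, 8.77 and 0 CPM in WT and 0 in all Del(CBS1-5) libraries, and Rps15a-ps8 5.44, 4.95 and 0 CPM against 0 to 0.090 CPM. Distal WT library 3 was low too, with 13.6, 10.5 and 0.062 CPM of Gm4864 and 5.40, 6.01 and 0.062 CPM of Rps15a-ps8 in distal WT. None of the 15 was called. Without WT library 3 the comparison had 47 called genes in place of 11, and with it left out Hoxd4, Hoxd8 and Hoxd9 were called as before.

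Of the 11 called genes 6 lie on chromosome 2, which holds 8.05% of the genes tested and the Hoxd cluster. These include Hoxd4, Hoxd8 and Hoxd9 of the cluster itself and the copy Gm13328, whose value is uncertain. The rest are Polr1b and Sirpa. From 40 to 60 Mb from Hoxd13 on the Hoxd1 side of the cluster, a stretch chosen after the values were seen, 62 of 219 genes (28.3%) had an unadjusted p under 0.05, 28 higher and 34 lower. The share was 8.44% among the other 1054 genes of chromosome 2 and 6.48% over all genes. Polr1b and Sirpa were the called genes of that stretch. Tmem127, a regulator of growth signalling (-0.26 ± 0.05), and Mcm8, a helicase of recombination repair (0.47 ± 0.10), each had an adjusted p of 0.0933 in edgeR (Benjamini-Hochberg), and they too were named after their values were seen. Pcna and Mrps5, the parents of the copies above, lie there too, at 132249162 to 132253314 and 127587222 to 127606829.

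In bins of 10 Mb over all autosomes, 226 bins held at least 20 genes, and a median of 5.37% of their genes had an unadjusted p under 0.05. The share passed 20% in 4 bins and was highest, at 34.5%, from 120 to 130 Mb of chromosome 2. The stretch of chromosome 2 lies outside the 3 Mb window around the cluster, in which the calls were HoxD genes.

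**Figure D4:**
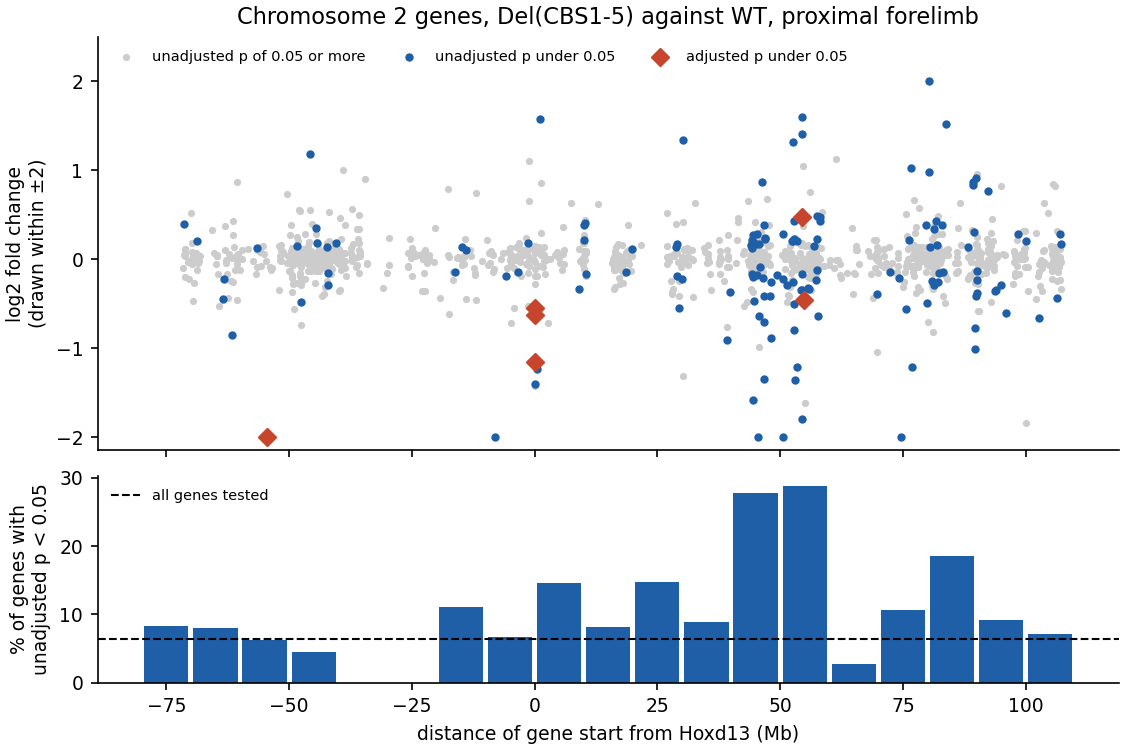
Log2 fold change of each chromosome 2 gene, Del(CBS1-5) against WT in proximal forelimb, by distance of its start from Hoxd13 in Mb (positive on the Hoxd1 side; top, values past ±2 drawn at ±2), and the percentage of genes with an unadjusted p under 0.05 per 10 Mb (bottom; dashed line, 6.48% of all genes). Called genes lie at the cluster and 50 to 60 Mb from it on the Hoxd1 side, with Gm13328 on the other side, and the share of genes is highest from 40 to 60 Mb.

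Genes of the proximal limb were compared between the genotypes, which does not test the tissue label, since both groups carry it. The summed level of 20 genes of proximal limb patterning, among them Shox2 and Tbx18, was 2434 to 2789 CPM in WT and 2632 to 2942 CPM in Del(CBS1-5). None of them was called by edgeR. Unadjusted p under 0.05 occurred in 3 of 20, all higher, beside 2.73% of all genes higher and 3.75% lower. They were Pbx3 (0.19 ± 0.06), Tbx18 (0.20 ± 0.08) and Shox2 (0.25 ± 0.11), which encode homeodomain and T-box factors of the proximal limb. Of 22 genes of distal patterning 0 were called, with a median of -0.08.

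Among the other Hox clusters, no gene was called in 14 HoxA, 8 HoxB and 9 HoxC genes tested. Hoxa10 differed by -0.17 ± 0.07 and Hoxa7 by 0.26 ± 0.12. Hoxb2 was low in both groups, at 2.33, 3.19 and 2.45 CPM in WT and 4.69, 3.87 and 4.39 CPM in Del(CBS1-5) (0.69 ± 0.20; edgeR, Benjamini-Hochberg adjusted p = 0.413). Hoxc4, Hoxc5 and Hoxc6, neighbours in their cluster, were above WT without overlap, with differences of 0.90 ± 0.30, 1.3 ± 0.46 and 0.89 ± 0.29 and adjusted p of 0.589, 0.648 and 0.588 in edgeR (Benjamini-Hochberg). Del(CBS1-5) library 1 was the highest of the mutant libraries at all 3 HoxC genes, with 17.5 CPM of Hoxc5 against 6.43 and 7.17.

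In 23 lists of limb, signalling and cell type genes besides HoxD, no gene was called, and the members named here and below were chosen after their values were seen. The erythroid list stood out in size: 9 of 12 tested genes were higher and 1 lower at an unadjusted p under 0.05, beside 2.73% and 3.75% of all genes, and the median was 0.88. In 9 of the 12 the mutant libraries lay above WT without overlap, as at 5.36% of all genes. Hbb-y, an embryonic beta-like globin, measured 1597, 1427 and 1513 CPM in WT and 2086, 2151 and 2125 CPM in Del(CBS1-5) (0.49 ± 0.13; edgeR, Benjamini-Hochberg adjusted p = 0.344).

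Slc4a1, the anion exchanger of red cells, measured 56.7, 36.1 and 55.6 CPM in WT and 91.4, 82.4 and 66.6 CPM in Del(CBS1-5) (0.70 ± 0.20). Hba-x, an embryonic alpha-like globin, differed by 0.89 ± 0.27. Hbb-bs went the other way, with 53.1, 55.6 and 18.6 CPM against 16.3, 21.2 and 18.7 CPM. It is nearly identical to Hbb-bt (0.91 ± 0.27), so the values of these adult globins are uncertain, as are those of Hba-a1 and Hba-a2. The summed level of the list was 2020 to 2617 CPM in WT and 3263 to 3702 CPM in Del(CBS1-5), and its part in other differences was not tested.

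Genes of the joint interzone, the layer of cells where joints form, had a median of -0.24. At an unadjusted p under 0.05, 6 of 12 were lower and 0 higher, beside 3.75% and 2.73% of all genes. Gdf5, the marker growth factor of the interzone, measured 68.7, 78.3 and 81.2 CPM in WT and 49.2, 67.4 and 70.0 CPM in Del(CBS1-5), and the groups overlapped (-0.29 ± 0.12). Wnt4, a signal of the interzone, measured 40.5, 43.8 and 41.1 against 31.9, 29.5 and 36.8 CPM (-0.36 ± 0.11). Nog, the secreted BMP inhibitor noggin, measured 17.4, 21.98 and 16.9 against 11.2, 13.3 and 14.4 CPM (-0.54 ± 0.16). The groups of Wnt4 and Nog did not overlap, and both had an adjusted p of 0.474 in edgeR (Benjamini-Hochberg). Mutant libraries lay below WT without overlap in 6 of the 12 genes, as at 5.62% of all genes.

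The other differentiation lists had medians below 0 without a call. Of 24 cartilage genes 21 were negative, with a median of -0.15. Sox6, a cofactor of the cartilage regulator Sox9, differed by -0.29 ± 0.09, and Ihh, the growth plate signal, by -0.44 ± 0.19. Of 18 tendon and connective tissue genes 16 were negative (median -0.21), with Scx, the tendon transcription factor, at -0.24 ± 0.08. Of 31 skeletal muscle genes 22 were negative (median -0.17), with Tnnc2, a troponin of fast fibres, at -0.38 ± 0.15, and of 17 genes of hypoxia and glycolysis 16 were negative (median -0.16), with Pfkfb3, an activator of glycolysis, at -0.23 ± 0.07. Grem1, a BMP antagonist, measured 51.9, 75.1 and 45.2 CPM in WT and 20.2, 26.0 and 46.8 CPM in Del(CBS1-5), with overlap (-0.91 ± 0.32).

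Of 20 cycling-cell genes 19 were positive, with a median of 0.09, and Pcna alone had an unadjusted p under 0.05. Genes of CTCF and cohesin differed little: 11 were tested, and the median was 0.0014. Among them 0 had an unadjusted p under 0.05, where 6.48% of all genes did. Ctcf itself measured 193, 210 and 206 CPM in WT and 224, 211 and 217 CPM in Del(CBS1-5) (0.10 ± 0.05). The 16 Polycomb genes tested had a median of 0.02.

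**Figure D5:**
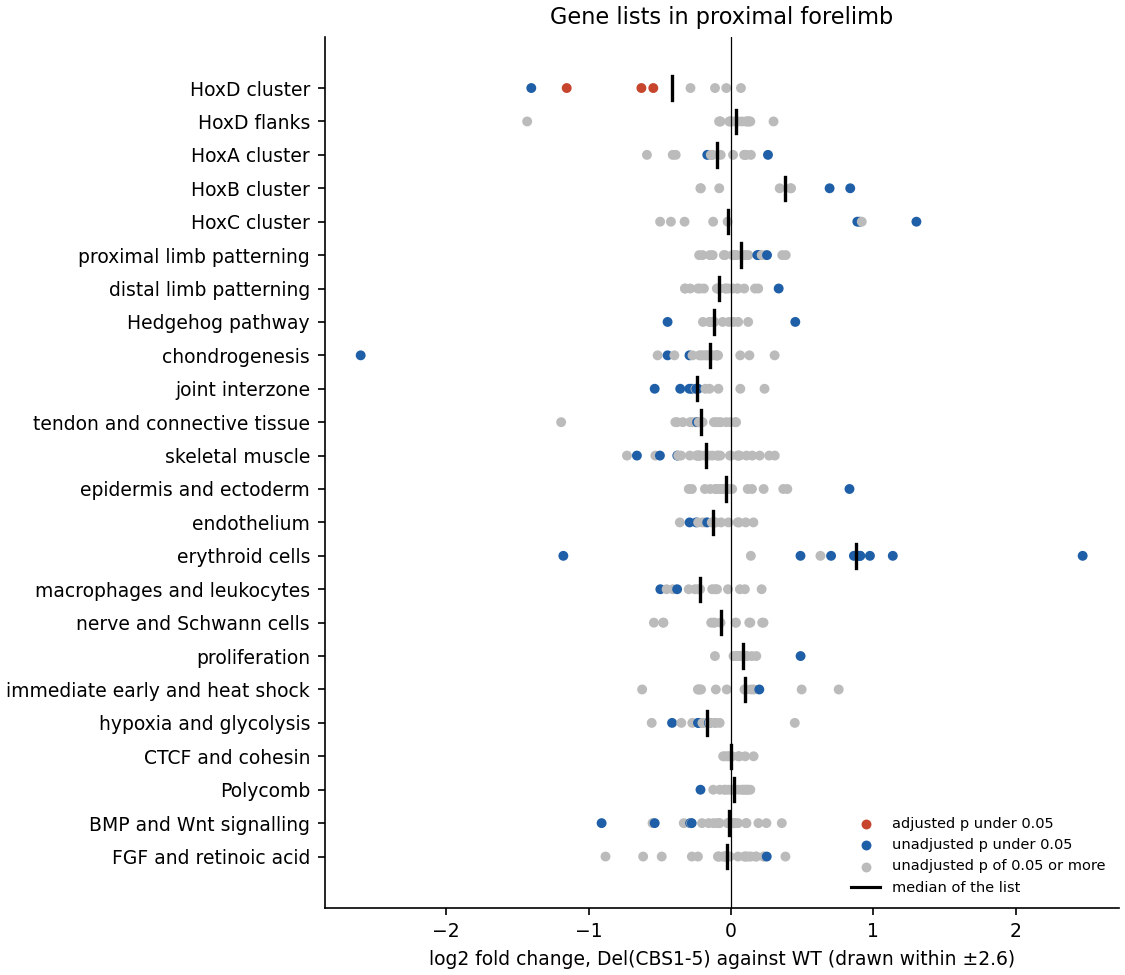
Log2 fold change of each tested gene of 24 lists, Del(CBS1-5) against WT in proximal forelimb (x axis, values past ±2.6 drawn there), with a bar for each list's median. Called genes are found in the HoxD list alone, the erythroid median is 0.88, and the joint interzone median is -0.24.

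Genes of chromosomes X, Y and M are in the deposited FPKM alone, and 459 were tested by limma on log2(FPKM + 1). Of these 0 were called and 24 had an unadjusted p under 0.05, where 6.48% of the autosomal genes did in edgeR. The smallest adjusted p (Benjamini-Hochberg) was 0.103, for Alas2, the first enzyme of haem synthesis in red cells (0.72 ± 0.14).

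Distal forelimb of the same allele was compared with distal WT to ask whether the proximal response differs from the distal response. The effect differed between the tissues in 0 of 16292 genes by edgeR (0%), in 0 by DESeq2 and in 0 by limma on FPKM, and 966 genes (5.93%) had an unadjusted p under 0.05. Distal minus proximal, the difference of the log2 fold changes was 0.66 ± 0.39 for Hoxd8, with an interval of -0.14 to 1.47, 0.16 ± 0.22 for Hoxd9 (-0.30 to 0.61) and -0.21 ± 0.46 for Hoxd4 (-1.15 to 0.73). For Hoxd10 it was -0.26 ± 0.11 (-0.47 to -0.04), which did not pass either (edgeR, Benjamini-Hochberg adjusted p = 0.794).

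In distal tissue 10 of 15361 genes (0.0651%) were called, and Hoxd10 was the HoxD gene among them. Distal Hoxd10 measured 113, 117 and 104 CPM in WT and 88.2, 79.5 and 88.8 CPM in Del(CBS1-5) (-0.39 ± 0.07; edgeR, Benjamini-Hochberg adjusted p = 0.0323). Hoxd4 was low there, at 7.45, 2.59 and 4.83 CPM in WT and 2.12, 2.13 and 1.46 CPM in Del(CBS1-5), and did not pass (-1.38 ± 0.44). Fignl1 rose in distal tissue too (0.55 ± 0.09), and Pcna-ps2 (-5.93 ± 0.44), Gm13328 and AA465934 (-2.78 ± 0.41) fell. The distal libraries may come from the same embryos as the proximal libraries of the same number, so these are not independent embryos.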

How the data were processed

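RNA-seq of 36 E12.5 forelimb libraries was used. The deposited counts are whole-number reads per gene for 50833 autosomal genes and the deposited FPKM cover 55052 genes; per the submitters' processing notes, cutadapt 1.16, STAR 2.7.0, Cufflinks 2.2.1 and bedtools 2.27.1 were used with mm10. The deposited counts are labelled HTSeq counts, and the sources used here do not give the strand setting of the counting. Of the FPKM rows, 4222 are found there alone, among them chromosomes X, Y and M.

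The 18 proximal libraries were fitted with edgeR 4.0.16 (TMM, filterByExpr, glmQLFit, glmQLFTest, group means) in R 4.3.3, with Benjamini-Hochberg adjustment over 15813 genes. The tissue comparison used all 36 libraries and 16292 genes. SE is the fold change divided by the square root of F. Alternatives were DESeq2 1.42.0, limma 3.58.1 on log2(FPKM + 1) or log2(FPKM + 0.1) with at least 1 FPKM in 3 libraries, other scaling and filters, a replicate block, and leaving out each library. Copies were aligned with Biopython 1.88. On simulated counts for 15813 genes and the comparison with WT, the share of changed genes recovered was 73.1% at 1.5-fold, 91.0% at 2-fold and 98.5% at 3-fold. The changed genes, 67, 67 and 66 of them, were drawn only from genes above a cut on mean level. That simulation had 183 calls, where the real comparison had 11, so its cut on the unadjusted p was looser. These shares therefore do not give the power of the real comparison, least of all at low-count genes.

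The members and gene lists were chosen with earlier results of these data known. Named genes were all HoxD genes, then up to 12 called genes per direction (up to 5 for Del(CBS1-5) against Del(CBS1-4)) with the largest fold change, at least 50 mean counts in the higher group, no overlap of libraries and no unnamed model, and up to 4 called members per list. Some genes that this rule or the lists hold are not reported here. The labels speak of individual pairs of forelimbs but do not name the embryos or litters. The p-values therefore set each difference against the spread between libraries of the same group, and litters could not be taken into account.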

Additional observations from a re-analysis of the deposited data

How the results depend on the processing

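Against WT, 11 genes were called, 3 of them HoxD. DESeq2 called 32 and 4, edgeR without the filter on low counts 362 and 5, and a fit of the compared groups alone 7 and 2. By limma the numbers were 5 and 1 on log2(FPKM + 1), 3 and 0 on log2(FPKM + 0.1), and 7 and 0 on log2(FPKM + 1) without a filter. Leaving out each library gave 2 (without Del(CBS1-5) library 1 or 2) to 47 genes (without WT library 3) and 0 to 3 HoxD genes, and 3, 4 and 6 genes without WT library 1, WT library 2 and Del(CBS1-5) library 3. Sex as a covariate, chosen after seeing the data, gave 12 and 3.

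The replicate block gave 8 genes and 1 HoxD gene, Hoxd8. Same-numbered WT and Del(CBS1-5) libraries did not deviate together (r from -0.33 to 0.065 across genes), so the numbers were not taken to pair them.

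Hoxd4 ranged from -1.25 to -0.96, Hoxd8 from -0.69 to -0.53 and Hoxd9 from -0.57 to -0.51 over these alternatives, and Pcna-ps2 was called in all 15. Against Del(CBS1-4), the 1627 calls became 1034, 1009 and, without a filter, 267 by limma, 2430 by edgeR without a filter, 1946 by DESeq2, 1275 with the replicate block, and 110 to 2104 on leaving out a library. There Nudc-ps1 reversed to 0.0499 on log2(FPKM + 1) without a filter. The tissue comparison had 94 calls without the filter on low counts and 0 on leaving out any library. The causes of these shifts were not tested. Low-count genes limit precision: Hoxd1 had 1 to 6 counts per library.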
